A study of Lactuca sativa with 6 samples.

Results

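IAA27 (Cluster-8434.0) and IAA17 (Cluster-5788.0) are 2 Aux/IAA transcripts of lettuce (Lactuca sativa), out of 39253 assembled transcript clusters counted in 6 leaf libraries. Both were selected on these libraries, because the study listed them among phytohormone-related clusters that differed from the control after both extracts. LsCv seedlings received an extract of the microalga Chlorella vulgaris and LsSq seedlings an extract of Scenedesmus quadricauda, each applied a single time in Hoagland nutrient solution that carried 1 mg of organic carbon a litre. LsCK seedlings grew in Hoagland solution alone. All groups were the same crop grown in the same solution, with leaves collected 4 days after treatment and 2 poly-A RNA libraries sequenced in each group. The study describes 5 biological replicates per treatment, but whether the 2 libraries of a group came from separate boxes of plants is not given in the sources used here, so each p-value measures the spread between these libraries, which may be technical.

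Aux/IAA proteins are short-lived nuclear repressors. They bind auxin response factors (ARFs) and recruit corepressors that keep auxin-responsive genes off, and auxin joins them to an F-box receptor that sends them for degradation, which frees the ARFs. Many Aux/IAA genes are themselves switched on by auxin, so that the repressors form a negative feedback loop. In Arabidopsis, IAA17 is also known as AXR3, a gene whose stabilising mutations alter root gravitropism and branching, and IAA27 is also known as PAP2, a phytochrome-associated protein. The names come from the study's annotation of the lettuce clusters, which were not matched to genome coordinates here, and the leaf label was not checked against leaf marker genes, because names were used only for clusters that the study lists.

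The libraries held between 26408716 and 35184764 expected counts, so that 3 counts corresponded to between 0.0858 and 0.111 CPM (counts relative to library size, with TMM scaling, the trimmed mean of M-values). LsCK replicate 2 and LsCv replicate 1 stood apart. Spearman's rho over clusters was 0.942 between the LsCv libraries, 0.975 between the LsSq libraries and 0.926 between the LsCK libraries, and LsCK replicate 2 lay closer to LsSq replicate 2 (0.960) than to LsCK replicate 1. LsCv replicate 1 had rho between 0.887 and 0.952 to the other 5 libraries, was closer to LsCK replicate 1 (0.952) than to LsCv replicate 2, and had the lowest TMM factor, 0.835 against 0.994 to 1.09 in the others. The 618 clusters whose descriptions in the study's supplementary list name an animal genus summed to 1085 CPM in LsCK replicate 2, against 2.45 to 3.84 CPM in the other 5 libraries. The genera were picked out here from descriptions that the study gave to clusters it selected on these libraries. The part of these libraries in the results below was not tested beyond leaving each out and scaling without the animal-described clusters. That scaling gave a log2 fold change in LsCv versus LsCK of -3.29 for IAA27 and -2.36 for IAA17, the same to these digits as the main scaling.

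Both repressors were lowest in LsCv leaves, and their highest value in each case was in LsCK replicate 2. IAA27 stood at 0.517 and 2.37 CPM in LsCv leaves and at 4.40 and 6.54 CPM in LsSq leaves, against 2.98 and 25.5 CPM in LsCK leaves (replicates 1 and 2 in each group). Both LsCv libraries lay below both LsCK libraries, while the LsSq libraries lay between the LsCK libraries. The group means were 1.44 ± 1.31 CPM in LsCv, 5.47 ± 1.51 CPM in LsSq and 14.3 ± 15.9 CPM in LsCK (SD, n = 2 each), so the SD of the control exceeded its mean. In whole leaves, fewer cells that carry a transcript and less of it per cell cannot be told apart.

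IAA17 stood at 1.48 and 2.63 CPM in LsCv leaves and at 4.01 and 5.76 CPM in LsSq leaves, against 3.38 and 17.8 CPM in LsCK leaves. The pattern was that of IAA27, with LsCv below LsCK without overlap and LsSq between the 2 control values. The group means were 2.06 ± 0.818 CPM in LsCv, 4.88 ± 1.24 CPM in LsSq and 10.6 ± 10.2 CPM in LsCK (SD, n = 2 each). Neither transcript was rare or abundant, since 45.5% of the 28157 clusters that passed the filter on low counts had a lower mean CPM than IAA27, and 42.6% a lower mean than IAA17. Both members passed that filter.

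**Figure D1:**
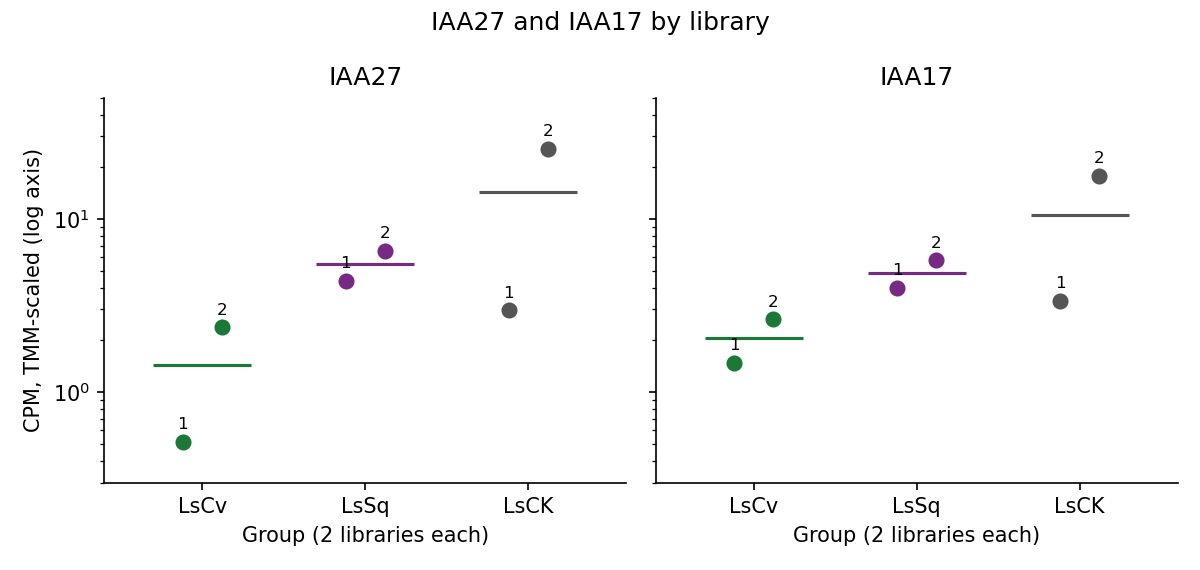
CPM of IAA27 (left) and IAA17 (right) on a log axis in the 2 libraries of LsCv, LsSq and LsCK; points are libraries, numbered by replicate, and bars are group means. In both panels LsCv lay lowest and LsCK replicate 2 highest, at 25.5 CPM for IAA27 and 17.8 CPM for IAA17.

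The counts behind these values differed in depth. IAA27 was counted 14 and 71 times in LsCv and 135 and 191.99 times in LsSq, against 104 and 731 times in LsCK. IAA17 was counted 40 and 79 times in LsCv and 123 and 169 times in LsSq, against 118 and 510 times in LsCK. The least certain value was that of IAA27 in LsCv replicate 1, which rested on 14 counts. Of the 12 counts of both members, 1 was not a whole number.

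Replicates differed most in the control. For IAA27, replicate 2 exceeded replicate 1 by 4.58-fold in LsCv, by 1.49-fold in LsSq and by 8.58-fold in LsCK. For IAA17 the same ratios were 1.78-fold in LsCv, 1.44-fold in LsSq and 5.27-fold in LsCK. On the scale of log2(CPM + 0.5) the gap between the LsCK replicates was 2.90 for IAA27 and 2.24 for IAA17, and 0.259% and 0.671% of the clusters tested had as wide a gap in the same direction. These shares are no sign of rarity, since the members were chosen against the same control libraries. Replicate 2 lay above replicate 1 in all 3 groups for both members and for 4930 clusters (17.5%).

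The 2 repressors followed one course over the 6 libraries. Ordered from high to low, LsCK replicate 2 came first, followed by LsSq replicate 2, LsSq replicate 1, LsCK replicate 1, LsCv replicate 2 and LsCv replicate 1, in both clusters alike. This order was found in 316 of the 28157 clusters tested (1.12%). LsCK replicate 2 was the highest library in 19.4% of the clusters, LsCv replicate 1 the lowest in 26.7%, and both held in 8%. Both LsCv libraries lay below the other 4 libraries in 15.1% of the clusters.

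Pearson's r between IAA27 and IAA17 was 0.988 and Spearman's rho was 1 over the 6 libraries, on the scale of log2(CPM + 0.5). Leaving out LsCK replicate 2 gave r = 0.987, and leaving out both libraries farthest from the median, LsCK replicate 2 and LsCv replicate 1, gave r = 0.989 over 4 libraries. These correlations are descriptions, since both clusters were chosen for their course in the same libraries and share the depth and scaling of each library. The range was wider for IAA27. Its highest library exceeded its lowest 49.3-fold, against 12.05-fold for IAA17, and the SD of the log2 level was 1.55 for IAA27 and 1.09 for IAA17. The fitted slope of IAA27 on IAA17 was 1.40 on the log2 scale.

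**Figure D2:**
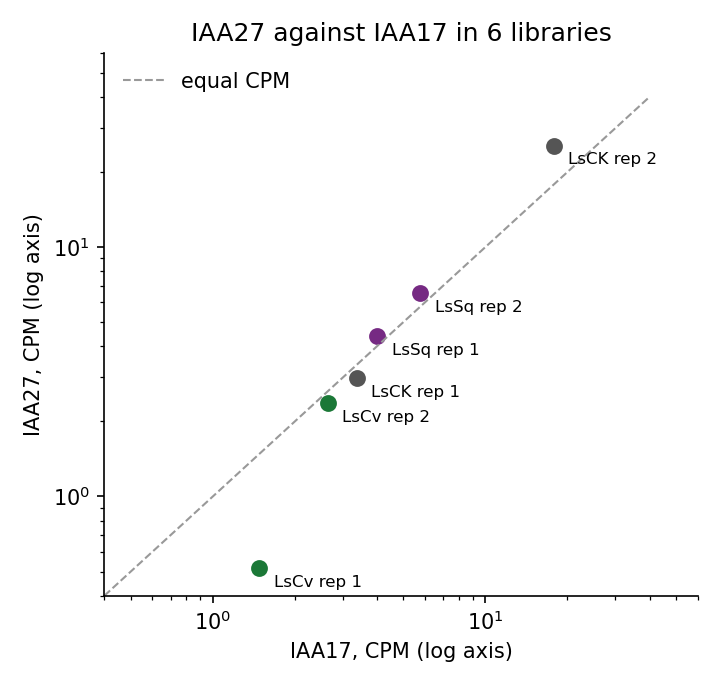
CPM of IAA27 against CPM of IAA17 in each of the 6 libraries, both on log axes; each point is a library and the dashed line marks equal CPM. The libraries fall in the same order on both axes, and LsCv replicate 1 (0.517 CPM of IAA27 and 1.48 CPM of IAA17) lies farthest below the line.

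The ratio of IAA27 counts to IAA17 counts within a library does not depend on the scaling between libraries. It is not a ratio of molecules, since counts were not divided by transcript length. The ratio was 0.350 and 0.899 in LsCv and 1.10 and 1.14 in LsSq, against 0.881 and 1.43 in LsCK. The exact (Clopper-Pearson) 95% intervals, which cover counting error only, were 0.176 to 0.657 and 0.643 to 1.25 in LsCv. They were 0.853 to 1.41 and 0.919 to 1.41 in LsSq, and 0.671 to 1.16 and 1.28 to 1.61 in LsCK.

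The ratio was thus near 1 in 4 of the 6 libraries, where the interval held 1. IAA27 had fewer counts than IAA17 in LsCv replicate 1 and more counts in LsCK replicate 2, beyond counting error in both. These are also the libraries in which both transcripts were lowest and highest. With 0.5 added to each count, the mean log2 ratio was -0.82 ± 0.94 in LsCv, 0.16 ± 0.04 in LsSq and 0.17 ± 0.50 in LsCK (SD, n = 2 each).

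The mean log2 ratio of LsCv was lower than that of LsCK by a difference of -0.99, and LsSq and LsCK differed by -0.01. Neither difference was tested, because the members were chosen in those comparisons. LsCv and LsSq differed by -0.98, with both LsCv ratios below both LsSq ratios (exact two-sided permutation test, p = 0.333, the smallest that 2 against 2 libraries can give). This difference was -0.31 without LsCv replicate 1 and -1.64 without LsCv replicate 2.

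**Figure D3:**
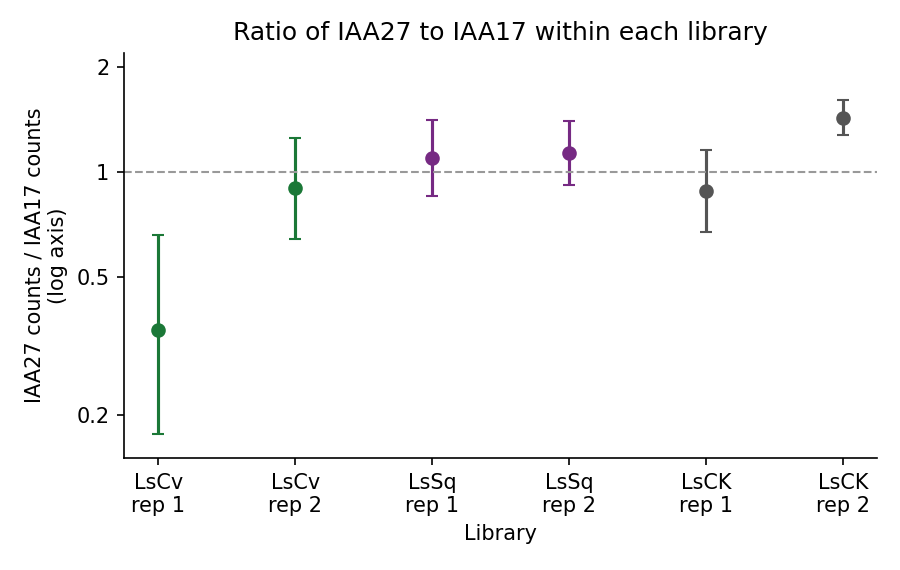
Ratio of IAA27 counts to IAA17 counts in each library, on a log axis; points are ratios, bars are exact 95% intervals for counting error, and the dashed line marks a ratio of 1. LsCv replicate 1 (0.350) lies below 1 and LsCK replicate 2 (1.43) above it, with the other 4 intervals spanning 1.

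The comparisons with the control chose both members, and their values are therefore given as a description with no test. The fitted log2 fold change of LsCv versus LsCK was -3.29 (SE 1.11) for IAA27 and -2.36 (SE 0.80) for IAA17. Both members lay lower in LsCv without overlap of the libraries, as did 20.7% of all clusters tested. Nothing is read from that count, since the choice favoured it. For LsSq versus LsCK the log2 fold change was -1.38 (SE 1.03) for IAA27 and -1.11 (SE 0.76) for IAA17. The LsSq and LsCK libraries overlapped for both members, while 17.1% of the clusters lay lower in LsSq without overlap. The 2 comparisons share their control libraries. Which LsCK libraries entered the comparisons by which the study chose the members is not given in the sources used here, so the choice may rest more on one of them than on the other.

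How far LsCv lay below the control, and on which side of it LsSq lay, depended on which control library was used. Against LsCK replicate 1, IAA27 was 5.75-fold and 1.26-fold lower in the LsCv libraries (replicates 1 and 2), and IAA17 was 2.28-fold and 1.28-fold lower. Against LsCK replicate 2, IAA27 was 49.3-fold and 10.8-fold lower in the LsCv libraries, and IAA17 was 12.05-fold and 6.76-fold lower.

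The LsSq libraries lay on opposite sides of the 2 controls. They were 1.48-fold and 2.198-fold higher than LsCK replicate 1 for IAA27, and 1.19-fold and 1.71-fold higher for IAA17. Against LsCK replicate 2 they were 5.80-fold and 3.90-fold lower for IAA27, and 4.44-fold and 3.09-fold lower for IAA17. With LsCK replicate 2 left out of the fit, the log2 fold change of LsSq versus LsCK was 0.87 for IAA27 and 0.53 for IAA17, and that of LsCv versus LsCK was -1.05 for IAA27 and -0.73 for IAA17. With LsCK replicate 1 left out, LsSq versus LsCK gave -2.25 for IAA27 and -1.90 for IAA17, and LsCv versus LsCK gave -4.12 for IAA27 and -3.10 for IAA17. Without LsCv replicate 1, LsCv versus LsCK gave -2.59 for IAA27 and -2.01 for IAA17. In these fits the lone library of a group is assumed to vary like the other groups.

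**Figure D4:**
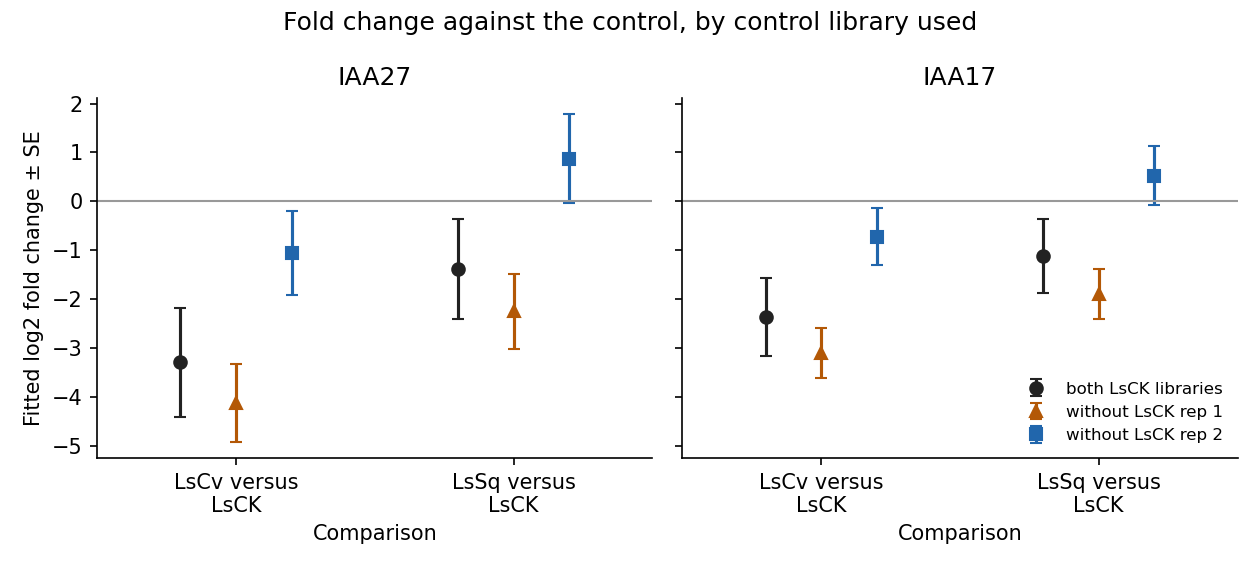
Fitted log2 fold change of IAA27 (left) and IAA17 (right) in LsCv versus LsCK and LsSq versus LsCK, with both LsCK libraries (circles), without LsCK replicate 1 (triangles) and without LsCK replicate 2 (squares); bars are SE. LsSq versus LsCK changes sign without LsCK replicate 2, to 0.87 for IAA27 and 0.53 for IAA17, and LsCv versus LsCK stays below 0.

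The direct comparison of the 2 extracts was not the one that chose the members, although it uses the same treated libraries. IAA27 was 3.77-fold lower in LsCv than in LsSq (log2 fold change -1.91, SE 1.07), and IAA17 was 2.37-fold lower (log2 fold change -1.24, SE 0.78). Both LsCv libraries lay below both LsSq libraries for both members, as they did for 31.3% of all clusters tested, a common pattern in this comparison. Neither difference passed edgeR's quasi-likelihood test (adjusted p = 0.41 for IAA27 and 0.45 for IAA17), in which 0% of the clusters were called. At an unadjusted p under 0.05 the test found 9.71% of the clusters lower in LsCv, and neither member was among them. DESeq2 (Benjamini-Hochberg adjustment) on the 4 libraries of these groups called 4.8% of the clusters lower in LsCv, and again neither member (adjusted p = 0.13 for IAA27 and 0.26 for IAA17).

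This comparison kept its direction without any one library. The log2 fold change ran between -3.39 and -1.17 for IAA27 and between -1.72 and -0.85 for IAA17, with the extremes of both reached without LsCv replicate 2 and without LsCv replicate 1. Over all alternatives the adjusted p lay between 0.13 and 0.87 for IAA27 and between 0.23 and 0.87 for IAA17. A cluster that encodes an rRNA small subunit methyltransferase (Cluster-15809.13020), which the study used as its qRT-PCR reference, stood at 19.1 and 20.4 CPM in LsCv and 19.7 and 20.2 CPM in LsSq, against 16.5 and 15.7 CPM in LsCK.

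The study named 10 other clusters of auxin synthesis, conjugation, transport and response, all for a change in these libraries, so that their counts are not independent evidence of a direction. With edgeR, no cluster of this list was called in LsCv versus LsSq, LsCv versus LsCK or LsSq versus LsCK, in each of which 0% of all clusters were called. At an unadjusted p under 0.05, 3 of the 10 were lower in LsCv than in LsCK (6.34% of all clusters) and 1 of the 10 was lower in LsSq than in LsCK (2.43% of all clusters). Between the extracts, 1 of the 10 was lower in LsCv (9.71% of all clusters) and 2 were higher (6.26% of all clusters). The median log2 fold change of the list was -0.49 for LsCv versus LsCK and -0.996 for LsSq versus LsCK, beside -0.03 and 0.00 over all clusters, and it was -0.01 for LsCv versus LsSq, beside -0.06. Without LsCK replicate 1 the list's median was 1.69 for LsCv versus LsCK and 0.65 for LsSq versus LsCK, and without LsCK replicate 2 it was -0.22 and -0.10.

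The auxin synthesis clusters ran largely opposite to the repressors. The study had chosen both for a difference between LsCv and LsSq, which builds in part of that course. YUCCA5 and YUCCA10 encode flavin monooxygenases of the last step of auxin synthesis. YUCCA5 (Cluster-8784.0) stood at 5.58 and 3.04 CPM in LsCv and 0.913 and 0.647 CPM in LsSq, against 2.83 and 0.384 CPM in LsCK, so its 6 libraries ranked in the exact reverse of both repressors (rho = -1, r = -0.92 with IAA27). How many of all clusters share that reverse order was not counted. YUCCA10 (Cluster-14797.0) stood at 15.4 and 4.14 CPM in LsCv and 2.25 and 1.53 CPM in LsSq, against 7.30 and 1.64 CPM in LsCK. Its order was not an exact reverse (rho = -0.89, r = -0.85 with IAA27), and its LsCv and LsCK libraries overlapped. In both YUCCA clusters, LsCv lay above LsSq without overlap, as it did in 6775 of the 28157 clusters tested. This was the opposite of IAA27 and IAA17. DESeq2 on 4 libraries called both higher in LsCv than in LsSq (adjusted p = 0.0097 for YUCCA5 and 0.010 for YUCCA10), as it did 6.01% of all clusters, whereas edgeR did not (adjusted p = 0.28 for both), and the study had chosen both in that comparison.

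Of the 4 transport clusters, PINOID2 (Cluster-6384.0) was the one that lay lower in LsCv than in LsSq without overlap. The repressors did so too, as did 31.3% of all clusters tested. PINOID kinases phosphorylate PIN auxin exporters. The cluster stood at 2.37 and 4.40 CPM in LsCv and 13.9 and 10.3 CPM in LsSq, against 5.64 and 9.43 CPM in LsCK (r = 0.75 with IAA27). LsCv thus lay below both other groups, as it did in 15.1% of all clusters tested. DESeq2 on 4 libraries called PINOID2 lower in LsCv than in LsSq (adjusted p = 0.013), as it did 4.8% of all clusters. The edgeR test did not (adjusted p = 0.23), and PINOID2 too had been chosen in that comparison. A LAX2-type auxin importer (Cluster-15809.12011) ranged from 17.7 to 22.3 CPM in 5 libraries and reached 60.5 CPM in LsCK replicate 2.

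PILS proteins hold auxin in the endoplasmic reticulum. PILS7 (Cluster-4711.0) stood at 11.5 and 0.867 CPM in LsCv and 4.17 and 0.443 CPM in LsSq, against 23.5 and 0.314 CPM in LsCK, so that replicate 1 was higher in all 3 groups, contrary to the repressors. A PIN-LIKES 7-like cluster (Cluster-15809.12940) was lowest in LsCK replicate 2, at 6.67 CPM, against 19.5 to 28.1 CPM elsewhere. GH3.1 (Cluster-18508.0), an enzyme family that conjugates auxin to amino acids, showed almost no relation to IAA27 (r = 0.04), with 2.00 and 13.2 CPM in LsCv and 15.7 and 11.8 CPM in LsSq, against 12.9 and 3.003 CPM in LsCK.

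Among the auxin response clusters, ARF3-like (Cluster-18086.1) had r = 0.88 and rho = 0.60 with IAA27. In Arabidopsis, ARF3 lacks the domain through which other ARFs bind Aux/IAA proteins. The cluster stood at 2.77 and 4.37 CPM in LsCv and 5.38 and 3.78 CPM in LsSq, against 5.55 and 13.2 CPM in LsCK, so that LsCv and LsSq overlapped and LsCK replicate 2 was the highest library. SAUR genes are early auxin-induced genes. SAUR76 (Cluster-8848.0) was highest in LsCK replicate 2, at 16.7 CPM, against 2.18 to 4.86 CPM elsewhere (r = 0.77), whereas SAUR71-like (Cluster-12293.0) was lowest there, at 1.36 CPM, against 2.96 to 13.8 CPM elsewhere (r = -0.33).

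**Figure D5:**
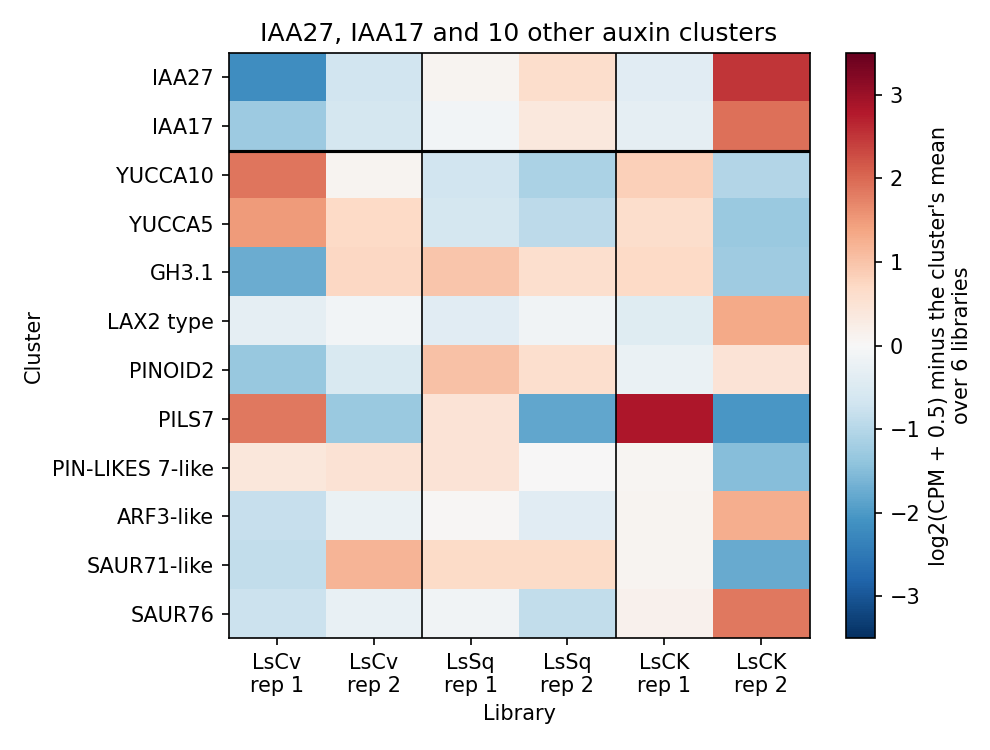
Level of IAA27, IAA17 and the 10 other auxin clusters in each library, as log2(CPM + 0.5) minus the mean of the cluster over the 6 libraries (red above, blue below). LsCK replicate 2 carries the highest value of IAA27 and IAA17 and the lowest of YUCCA5, whose libraries rank in reverse (rho = -1).

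The study named 7 further phytohormone clusters with IAA27 and IAA17, of cytokinin, brassinosteroid, abscisic acid and peptide signalling. Of these, 3 had a negative log2 fold change in LsCv versus LsCK and 4 in LsSq versus LsCK. Their fold changes in LsCv versus LsSq ran between -0.68 and 4.32 on the log2 scale, with 3 negative. At -1.91 (SE 1.07) and -1.24 (SE 0.78), IAA27 and IAA17 lay below that range, whose lowest value had an SE of 1.28. The gap to that range was not tested. Neither member passed the edgeR test in this comparison, and 31.3% of all clusters tested lay lower in LsCv than in LsSq without overlap.

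Likeness to both members was measured as the smaller of the 2 Pearson correlations of log2(CPM + 0.5) over the 6 libraries, which share depth and scaling. It was at least 0.9 in 593 of the 28155 other clusters tested (2.11%), and 1 cluster was at least as like both as they were to each other. That last count depended on the setting. With the limit held at the members' Pearson r over the 6 libraries (0.988), it was 314 by Spearman correlation and 34 without LsCK replicate 2. Among the 278 clusters tested that carried a lettuce name in the study's lists, endoglucanase 6-like (Cluster-15809.12519), of a family of cellulose-cleaving wall enzymes, came first, with r = 0.973 to IAA27 and 0.976 to IAA17. It stood at 12.6 and 25.7 CPM in LsCv and 24.6 and 31.9 CPM in LsSq, against 26.2 and 88.4 CPM in LsCK. A BTB/POZ domain protein (Cluster-13497.0) had r = 0.967 to IAA27 and 0.982 to IAA17, and an LRR receptor-like kinase (Cluster-12008.0) had 0.963 and 0.954. An NPR4-like ankyrin repeat protein (Cluster-15809.4327, r = 0.947 and 0.941) and TDR (Cluster-15809.12156, r = 0.949 and 0.939), in Arabidopsis a receptor of the peptide that keeps vascular stem cells dividing, completed the 5. All 5 were highest in LsCK replicate 2 and lowest in LsCv replicate 1, as the members were and as 8% of all clusters tested were. Choosing clusters by correlation with the members favours this. The study's lists mainly hold clusters that it chose for a shift in these libraries, so likeness to the members is partly built in. By rank correlation 1 of these 5 was among the 5 most alike, and without LsCK replicate 2 there were 3.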

How the data were processed

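The authors deposited a table of RSEM expected counts, 1 value per cluster and library, not normalized, from poly-A reads assembled with Trinity and grouped with Corset. All 6 libraries were used, grouped by their labels. Counts were rounded, filtered with filterByExpr (28157 of 39253 clusters kept) and scaled by TMM. All groups were fitted together with edgeR 4.0.16 (quasi-likelihood, Benjamini-Hochberg adjustment, threshold 0.05, prior count 0.125), and DESeq2 1.42.0 was an alternative, in R 4.3.3. The test scripts were checked on simulated counts. Calls of known changes were required only at a lower spread (dispersion) than the 0.211 of these data. The check therefore does not cover how many changes the tests find at this spread. Ratios of counts had exact 95% intervals, and log2 ratios (0.5 added to each count) were compared by an exact permutation test. Alternatives were other scaling, filters, priors, tools, a replicate block and leaving out each library. Expected counts split reads between similar transcripts, so values of related Aux/IAA clusters are uncertain to that degree. IAA27, IAA17 and the lists were chosen with earlier results of these data known. Text names were those 2 clusters, the auxin list, the qRT-PCR reference and the 5 named clusters most like both; the authors' table held no names, and 1214 rows of a supplementary list were used for names.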

Additional observations from a re-analysis of the deposited data

Results flagged for a closer look

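In 3 auxin clusters every LsCv library moved one way from the mean of the LsCK libraries and every LsSq library the opposite way, a pattern that was not tested as such. They are 3 of the 10 clusters of the auxin list, beside 22.3% of all clusters tested, and the study had selected all 3 for a difference between LsCv and LsSq. For YUCCA10 the log2 difference from the LsCK mean was 2.16 and 0.26 in LsCv and -0.62 and -1.17 in LsSq, so that LsCv minus LsSq was 2.10. For YUCCA5 it was 2.42 and 1.54 in LsCv and -0.19 and -0.69 in LsSq, with a difference of 2.42. For PINOID2 it was -1.62 and -0.73 in LsCv and 0.93 and 0.49 in LsSq, with a difference of -1.89. The LsCK libraries lay far apart for YUCCA10 (7.30 and 1.64 CPM) and YUCCA5 (2.83 and 0.384 CPM). IAA27 and IAA17 did not show this pattern, since all 4 treated libraries lay below the mean of the LsCK libraries on the log2 scale. That mean depended on LsCK replicate 2, since the LsCK libraries lay far apart here too (2.98 and 25.5 CPM for IAA27, 3.38 and 17.8 CPM for IAA17). Against LsCK replicate 1 alone, both LsCv libraries lay lower and both LsSq libraries higher for both members.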

How the results depend on the processing

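The size of the values against the control depended most on LsCK replicate 2, as did the sign of LsSq versus LsCK, while LsCv versus LsCK stayed negative throughout. Leaving out 1 library at a time moved the log2 fold change of LsCv versus LsCK between -4.77 and -1.05 for IAA27 and between -3.10 and -0.73 for IAA17. For LsSq versus LsCK it ran between -2.25 and 0.87 for IAA27 and between -1.90 and 0.53 for IAA17, and it was positive for both (0.87 and 0.53) only without LsCK replicate 2. For LsCv versus LsSq it ran between -3.39 and -1.17 for IAA27 and between -1.72 and -0.85 for IAA17. The log2 ratio of IAA27 to IAA17 ran between -1.65 and -0.32 for LsCv minus LsCK, between -0.36 and 0.34 for LsSq minus LsCK, and between -1.64 and -0.31 for LsCv minus LsSq.

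Over all clusters edgeR called 0 in each comparison, with 2458, 1310 and 4496 at an unadjusted p under 0.05 in LsCv versus LsCK, LsSq versus LsCK and LsCv versus LsSq. Leaving out a library gave 0 to 188 calls for LsCv versus LsCK, with 188 without LsCK replicate 1, and 0 for the other comparisons. DESeq2 on 6 libraries called 437, 140 and 1488 clusters in the same order, and on the 4 libraries compared 223, 174 and 2832; the cause was not tested. Clusters with r of at least 0.9 to both members numbered 1278 by rank correlation and 1806 without LsCK replicate 2, against 593.

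With a replicate block, LsCv versus LsSq gave -2.39 for IAA27 (adjusted p = 0.16, edgeR) and -1.32 for IAA17 (adjusted p = 0.26), with 0 clusters called. The block gave -0.68 for IAA27 and -0.77 for IAA17 in LsSq versus LsCK, against -1.38 and -1.11 without it, and -3.07 and -2.08 in LsCv versus LsCK, against -3.29 and -2.36. Deviations of same-numbered libraries correlated by 0.231 between LsCv and LsCK, 0.260 between LsSq and LsCK and 0.218 between LsCv and LsSq. With 2 numbers per group these are not taken as pairs. The leave-one-out medians of the auxin list were chosen after seeing the data. Depth limits IAA27 in LsCv replicate 1 most, at 14 counts.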
